A study of Mus musculus with 8 samples.

Results

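Oligodendrocyte progenitor cells (OPCs) of the mouse striatum were the 1441 cells that the authors' annotation of the striatal single-cell RNA sequencing data names OPC, out of 14690 annotated striatal cells of 10 types and 23687 annotated cells in the series. The series compared mice that carry 1 disrupted copy of Setd1a (Setd1a+/-) with wild-type (WT) littermates in prefrontal cortex (PFC) and striatum, and the sample labels name the striatal tissue NAc. The striatal cells came from 4 libraries on the 10x Chromium platform, WT replicates 1 and 2 and Setd1a+/- replicates 1 and 2, each made from the pooled tissue of 2 male C57BL/6N mice of 8 to 10 weeks per the labels, while the study's methods give another age. The mutation is a small frameshift deletion made with CRISPR-Cas9 in exon 15 of Setd1a, ahead of the part that encodes the catalytic SET domain, and it is present in all cells of the animal, so that OPCs, the neurons they contact and all other cells share it. No other allele or agent was given to either genotype. Because each library pools mice, the spread between libraries is the only replicate error, and p-values below rest on 2 libraries a genotype.

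OPCs are the dividing glial cells that give rise to oligodendrocytes, the cells that wrap axons in myelin. They depend on platelet-derived growth factor acting on the receptor Pdgfra, they carry chondroitin sulfate proteoglycans on their surface, and in grey matter they receive synaptic input from neurons through glutamate and GABA receptors. On leaving the cell cycle they pass through a committed stage marked by Gpr17, Bmp4 and Enpp6 and become newly formed oligodendrocytes (NFO) and then myelinating oligodendrocytes (Oligo). Setd1a is a methyltransferase of lysine 4 on histone H3, a mark of active promoters.

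The 4 striatal libraries held 17440876 to 26277553 unique molecular identifiers (UMIs, each standing for 1 captured RNA molecule) and 2495 to 4361 annotated cells. Where 4 values are given below, they are in the order WT replicate 1, WT replicate 2, Setd1a+/- replicate 1, Setd1a+/- replicate 2. There were 485, 391, 451 and 114 OPCs, with 788556, 684619, 778001 and 162197 UMIs in all, so that values of Setd1a+/- replicate 2 rest on the fewest UMIs. That library also stood apart in other ways. Oligo made up 2.69% and astrocytes (Astro) 1.24% of its cells, while D1 and D2 medium spiny neurons made up 40.4% and 27.6%. Its OPCs had the lowest median number of UMIs and the highest median share of mitochondrial UMIs, at 4.75% against 3.70 to 3.99% in the other libraries. Between the libraries, 91 cell barcodes of annotated striatal cells were shared, and none of them was shared between OPCs.

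The annotation was checked against the markers Pdgfra (chr5:75152292-75198215 of mm10), the receptor that defines the type, Ptprz1 (chr6:22875502-23052916), a receptor phosphatase of the proteoglycan family, and Vcan (chr13:89655312-89742509), the proteoglycan versican. Levels are in CPM, which scales the summed UMIs of a gene by the total that the OPCs of the library hold. Pdgfra stood at 744, 800, 801 and 851 CPM. The highest other striatal type, neural stem cells and neuroblasts (NB), had a mean of 44.9 CPM. Droplets of 1 to 100 UMIs, which hold free RNA and no cell, had a mean of 13.4 CPM. Ptprz1 reached 2444, 2356, 2526 and 2176 CPM, next to a mean of 548 CPM in Astro, and Vcan 490, 523, 446 and 376 CPM. The summed level of the 3 markers was 3403 to 3772 CPM in the OPCs of the 4 libraries and 66.6 to 108 CPM in the empty droplets, and 92.1 to 98.2% of the OPCs held at least 2 UMIs of them. The markers of the type were thus high in every library. The authors also named their clusters by marker genes, so this is no independent check of the label.

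In CPM, the marker lists of most other cell types were at or below their level in the free RNA. Here and below, CPM are shares of UMIs and do not compare the amount in a cell with that in an empty droplet. Markers of Oligo (Mog, Mag, Mobp, Opalin and Ermn) summed to 12.3 to 93.8 CPM in OPCs against 382 to 1544 CPM in empty droplets. Those of microglia (Micro) summed to 20.4 to 43.2 CPM against 311 to 669 CPM, and those of endothelial cells (Endo) to 18.5 to 45.0 CPM against 252 to 892 CPM. Markers of D1 medium spiny neurons (Drd1, Tac1, Pdyn, Isl1 and Eya1) came to 228 to 256 CPM in OPCs and 1628 to 2047 CPM in empty droplets. Pan-neuronal markers came to 1624 to 1987 CPM and 5377 to 6264 CPM, and 43.0 to 72.3% of the OPCs held at least 2 UMIs of them. Above the free RNA stood the lists of Astro, at 637 to 812 against 300.0 to 511 CPM, of NFO, at 310 to 517 against 59.4 to 101 CPM, and of NB, at 164 to 222 against 77.0 to 152 CPM. Whether OPCs or other cells in the same droplets carried these was not tested. Hemoglobin was a case of its own. Of 4709 UMIs of the genes Hba-a1, Hba-a2, Hbb-bs and Hbb-bt in OPCs, 4462 lay in 5 cells, 3 of WT replicate 1 and 2 of Setd1a+/- replicate 1, and no other OPC held more than 3.

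The genes that led in OPCs included a growth factor receptor, matrix proteins and partners of ion channels and glutamate receptors. The 25 genes named here had the largest ratio of the mean level in OPCs to the mean in the highest other striatal type, among 2703 genes with at least 50 CPM in the OPCs of every library. They are a description without a test, since the authors grouped the cells by the same expression values. All 25 were higher in OPCs than in each other type in all 4 libraries. Of the 2703 genes, 548 were highest in OPCs, 79 at over 2 times and 18 at over 5 times the next type. The last of the 25 was Matn4 at 3.91 times, and just outside were Lhfpl3 at 3.87 times and Cspg4, the proteoglycan NG2, at 3.76 times.

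**Figure D1:**
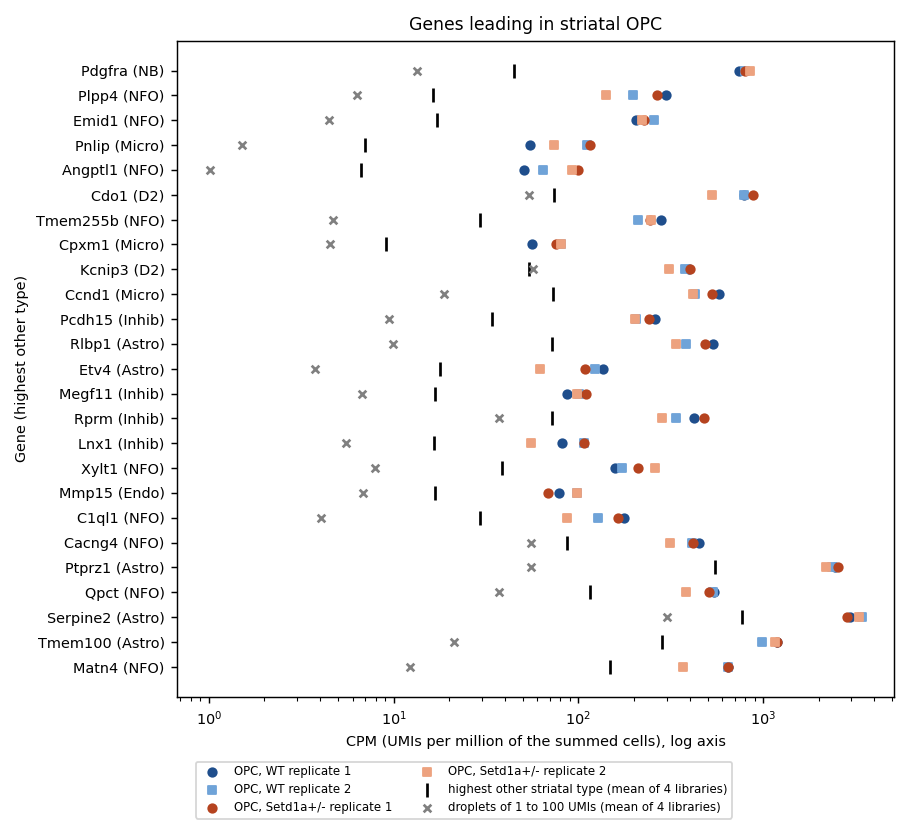
CPM on a log axis of the 25 genes with the largest ratio between striatal OPCs and the highest other striatal type, which is named in brackets. Coloured points are the OPCs of the 4 libraries, black bars the mean of that other type and grey crosses the mean in droplets of 1 to 100 UMIs; every coloured point lies to the right of the black bar of its gene, from 17.8 times for the mean of Pdgfra to 3.91 times for that of Matn4.

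Pdgfra led with a mean 17.8 times that of NB. Plpp4, a phospholipid phosphatase, followed at 297, 197, 266 and 142 CPM, 13.8 times the mean of NFO. Emid1, a secreted matrix protein, stood at 204, 256, 228 and 222 CPM, 13.3 times NFO. The NFO, the next stage of the lineage, were the highest other type for 9 of the 25 genes, so that the rest had their second level in astrocytes, interneurons (Inhib), D2 medium spiny neurons, microglia, endothelial cells or NB.

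Several of the 25 encode secreted or matrix proteins. Serpine2, a secreted inhibitor of serine proteases, was at 2952, 3419, 2848 and 3292 CPM, 4.07 times Astro. Matn4, a matrilin, was at 645, 647, 649 and 370 CPM, with Setd1a+/- replicate 2 below the other libraries. C1ql1, a secreted protein of the C1q family, was at 176, 127, 165 and 86.3 CPM, and Angptl1, an angiopoietin-like factor, at 50.7, 64.3, 99.0 and 92.5 CPM. Xylt1, which starts the sugar chain of proteoglycans, was at 157, 172, 210 and 259 CPM, 5.18 times NFO. Among other enzymes, Cdo1, the cysteine dioxygenase of taurine synthesis, was at 786, 789, 877 and 530 CPM, 10.1 times D2 neurons.

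Membrane proteins and their partners were also among the 25. Kcnip3, a calcium-binding partner of A-type potassium channels, reached 398, 377, 401 and 308 CPM and 6.85 times D2 neurons. Cacng4, an auxiliary subunit of AMPA-type glutamate receptors, reached 451, 410, 416 and 314 CPM and 4.61 times NFO. Pcdh15, a protocadherin, stood at 6.67 times and Megf11, a receptor with EGF repeats, at 5.92 times Inhib. Among the regulators of division and transcription, Ccnd1, the cyclin of early G1, was at 578, 428, 531 and 419 CPM, 6.68 times microglia, and Etv4, an ETS factor, at 136, 123, 109 and 61.7 CPM, 5.99 times Astro. Both replicate 1 libraries lay above both replicate 2 libraries for Ccnd1. In the OPCs of the 4 PFC libraries of the series, Etv4 was at 17.8 to 62.6 CPM and C1ql1 at 27.6 to 103 CPM. Of the striatal libraries only Setd1a+/- replicate 2 reached into these ranges, at 61.7 and 86.3 CPM, and the others lay above them. Ptprz1 was at 2705 to 4724 CPM in the PFC. These PFC values come from other libraries, and the difference between the tissues was not tested here.

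Known gene groups differed in how far OPCs stood out. Over all 10501 genes with a mean of at least 5 CPM in OPCs, 13.9% had their highest mean in OPCs among the 10 types, 1.89% stood at over 2 times the next type, and the median ratio to the highest other type was 0.56. Of 20 listed genes of OPC identity, 16 were highest in OPCs, with a median ratio of 3.89. The 4 others were Tnr and Neu4, both higher in NFO, Susd5, at 68.9 CPM against 71.2 CPM in NFO, and Gpr37l1, higher in Astro. Of 19 proteoglycan and matrix genes at that level, 12 were highest in OPCs, among them Cspg5 (1.61 times Astro), Sdc3 (2.39 times Endo) and Chst11 (3.62 times Endo), a sulfotransferase of chondroitin chains. Bcan, the proteoglycan brevican, stood at 566, 576, 445 and 512 CPM, next to a mean of 537 CPM in Astro.

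Of 26 transcription factors listed for the lineage, 6 were highest in OPCs. Olig1 was at 418, 400, 416 and 345 CPM, 2.31 times NFO, and Olig2 at 155, 105, 132 and 117 CPM, 1.67 times NFO. Sox5, which holds back differentiation, had 2.02 times the NFO level. Hes5, a target of Notch, and Etv5 were also among the 6, as was Zfp24 by 1.12 times. Sox10, the factor that all lineage stages need, was at a mean of 346 CPM in OPCs and 377 CPM in NFO. Nkx2-2 had 90.7 against 200 CPM and Tcf7l2 53.7 against 477 CPM in NFO, and Myrf, the factor that turns on myelin genes, had 8.62 CPM in OPCs and 126 CPM in Oligo. None of the 13 myelin genes at 5 CPM or more was highest in OPCs. Their median ratio to the highest type was 0.0052, and Mbp, at 92.5 to 200 CPM over the OPC libraries, lay under its mean of 1812 CPM in the empty droplets.

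Of 26 receptors for growth factors and other signals, 4 were highest in OPCs (15.4%, against 13.9% of all genes). They were Pdgfra, Ednrb, an endothelin receptor, at 624, 714, 590 and 598 CPM and 3.32 times Astro, Adora1, an adenosine receptor, at 2.02 times Oligo, and S1pr2, a receptor for sphingosine 1-phosphate, at 6.62 times Astro but only 31.8 CPM. Gpr17 had a mean of 276 CPM in OPCs and 1227 CPM in NFO. For genes of synaptic input, 9 of 33 glutamate and GABA receptor genes or synaptic adhesion genes were highest in OPCs. Grin3a, an NMDA receptor subunit, was the one over 2 times the next type, at 107, 76.0, 108 and 80.1 CPM and 2.39 times Inhib. The AMPA receptor subunits Gria3 and Gria4 and the kainate receptor subunit Grik1 were among the 9 at 1.17, 1.25 and 1.58 times Inhib. The adhesion genes Nlgn1, Nlgn2, Nlgn3 and Nrxn2 were also among the 9. Gria2 was at a mean of 566 CPM in OPCs and 501 CPM in the empty droplets. The summed level of this list was 2837, 2708, 2999 and 2694 CPM in OPCs and 3057, 3474, 2860 and 3658 CPM in the empty droplets. The part of free RNA in these levels was not tested. Of 27 ion channel genes 3 were highest in OPCs, namely Kcnip3, Cacng4 and Kcnj16.

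The list of histone H3 lysine 4 methylation holds methyltransferases, Setd1a among them, subunits of their complexes and demethylases. All 21 listed genes had a mean of at least 5 CPM in OPCs. Their median ratio to the highest other type was 0.59, next to 0.56 over all genes, and 2 of them were highest in OPCs, Cxxc1, a subunit of the Setd1 complexes, at 1.22 times NB and the demethylase Kdm5c at 1.01 times NFO. Dpy30, a core subunit, was at 132 to 197 CPM over the libraries. Of the immediate early and stress genes, which rise when tissue is dissociated, none of 17 was highest in OPCs, and Fos stood at 6.17 to 34.7 CPM in OPCs against a mean of 4617 CPM in Endo. The summed level of that list was 6493, 4134, 7373 and 3681 CPM in OPCs and 9844, 7202, 9950 and 7158 CPM in the empty droplets. In both, the replicate 1 libraries lay above the replicate 2 libraries while the genotypes overlapped, with Hspa8, Hsp90aa1 and Hsp90ab1 as its most abundant members.

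Some OPCs were in the cell cycle. Each cell was thinned to 1000 UMIs, which all OPCs reached, and was counted as cycling when it held at least 2 UMIs of 28 genes of DNA replication and mitosis. By this rule 66 of 1441 OPCs, 4.58% (95% Wilson interval 3.62 to 5.79%), were cycling. The same share was 0.341% in Oligo, 0.606% in NFO, 0.817% in Astro and 0.205% in D1 neurons, which should lack dividing cells, with median depths of 2076, 2777, 1974 and 3167 UMIs before thinning against 1625 in OPCs. In NB it was 92.0%. A threshold of this kind marks a range, and 30 of the 66 cells held exactly 2 UMIs while 180 other OPCs held 1. The intervals here and below cover counting error only.

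The UMIs that counted came from replication genes more than from mitotic ones. In the 66 cells after thinning, Pcna, the clamp of DNA polymerase, had 30 UMIs, Pclaf 28, Mcm3 27, Mcm2 21, Gins2 17, Mcm5 and Mcm6 16 each. The mitotic genes Mki67, Top2a and Ccnb1 had 2, 4 and 3. Of genes outside the rule, Pdgfra was at 758 CPM in them and 788 CPM in OPCs that were neither cycling nor committed, Ptprz1 at 2439 and 2445 CPM, and Vcan at 424 and 485 CPM. Other OPC identity genes differed more, with Matn4 at 348 and 611 CPM, C1ql1 at 75.8 and 150 CPM, Cspg4 at 182 and 270 CPM, and Pcdh15 the other way at 409 and 228 CPM. These 4 were chosen after their values were seen, and rest on 5 to 27 UMIs in the cycling cells. Sox11, a gene of neuroblasts with a mean of 2282 CPM in NB, was at 197 and 127 CPM.

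UMIs of genes that mark commitment were found in a larger share. By the same rule with the genes Bmp4, Enpp6, Gpr17, Neu4, Tcf7l2, Myrf and Itpr2, 481 OPCs or 33.4% (31.0 to 35.9%) held at least 2 UMIs and are called committed here by that rule alone. The share was 90.9% in NFO, 7.76% in Oligo and at most 2.21% in the other types. The threshold ran through a dense part of the range, since 289 of the 481 held exactly 2 UMIs and 451 other OPCs held 1. It was also carried by the genes that OPCs have in common with NFO. In the 463 committed cells that were not cycling, Neu4 gave 691 UMIs, Gpr17 297, Itpr2 127 and Tcf7l2 61, whereas the stage-specific genes Bmp4 gave 15 and Enpp6 2. Of genes the rule did not use, Pdgfra was at 821 CPM in these cells and 788 CPM in cells of neither class and Mbp at 179 and 129 CPM. Both rules were met by 18 cells.

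Gpr17, a receptor switched on when a progenitor begins to differentiate, was higher in both replicate 1 than in both replicate 2 libraries. It was at 360, 180, 374 and 191 CPM, so that the replicates did not overlap while the genotypes did. The share of all genes whose replicates do not overlap was not counted, and a link of Gpr17 to the replicate was not tested. The committed share, which counts Gpr17, had the same order, at 36.1, 27.4, 36.8 and 28.9%. Over 7084 genes with at least 40 UMIs, 5 differed at least 4-fold between both replicate 1 and both replicate 2 libraries, and 0 between genotypes. They were Gm8797, higher in replicate 2, and the 4 hemoglobin genes, higher in replicate 1 through the 5 cells named above. These 5 were chosen after their values were seen.

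**Figure D2:**
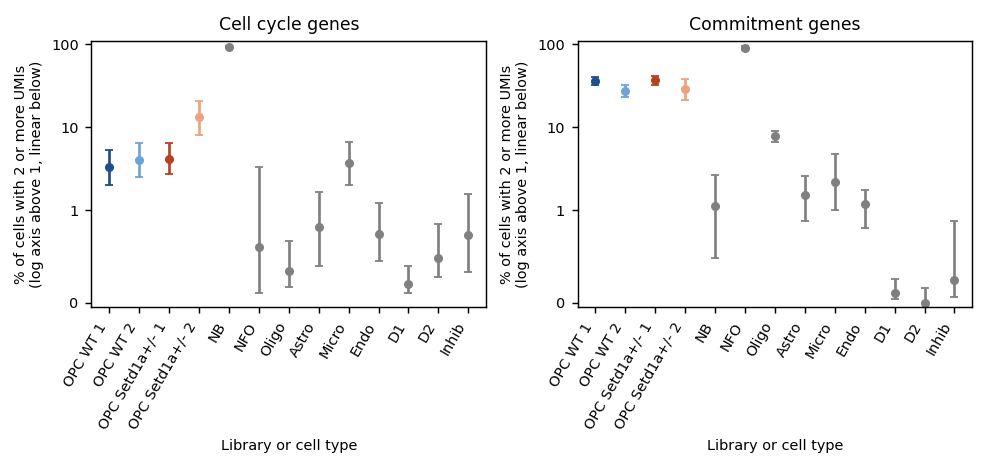
Share of cells, in percent, with at least 2 UMIs of the cell cycle genes (left) or of the commitment genes (right) after thinning to 1000 UMIs, on an axis that is logarithmic above 1 and linear below. Coloured points are the OPCs of the 4 libraries, grey points the other striatal types over all libraries, and bars 95% Wilson intervals; the cycling share lies at 3.30 to 4.21% in 3 OPC libraries and at 13.2% in Setd1a+/- replicate 2.

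Between the genotypes, the comparison asks whether losing 1 copy of Setd1a alters the number, state or expression of striatal OPCs. Setd1a itself (chr7:127776670-127800122 of mm10) was too low in OPCs to check the labels. Its UMIs numbered 11, 8, 6 and 1, or 13.9, 11.7, 7.71 and 6.17 CPM. The mutant libraries were the lower pair, and the ratio of mutant to WT counts, scaled to the total UMIs, was 0.577 with an exact 95% counting interval of 0.205 to 1.43. Setd1a did not pass the filter on low counts. The 10x assay reads the 3′ end of the transcript, and this count does not separate transcripts of the intact and the mutated copy. Whether the mutation alters the level of Setd1a RNA was not tested. Over all annotated striatal cells Setd1a was at 13.4, 15.2, 9.16 and 12.5 CPM.

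The share of OPCs among annotated cells was 11.1% (10.2 to 12.1%), 9.68% (8.81 to 10.6%), 11.9% (10.9 to 13.0%) and 4.57% (3.82 to 5.46%), with 95% Wilson intervals. Setd1a+/- replicate 1 was the highest and replicate 2 the lowest of the 4, so that the genotypes overlapped. The means were 10.4% ± 1.02 and 8.23% ± 5.17 (SD, n = 2 each), a difference of -2.17 percentage points (exact permutation test, two-sided, p = 1; 2 against 2 libraries cannot go below 0.333). Without Setd1a+/- replicate 2 the difference turned to 1.48. Among the oligodendrocyte lineage (OPC, NFO and Oligo) the share was 35.7, 41.7, 31.1 and 56.2%, so Setd1a+/- replicate 2 went from the lowest to the highest, and the difference turned to 4.92 points.

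**Figure D3:**
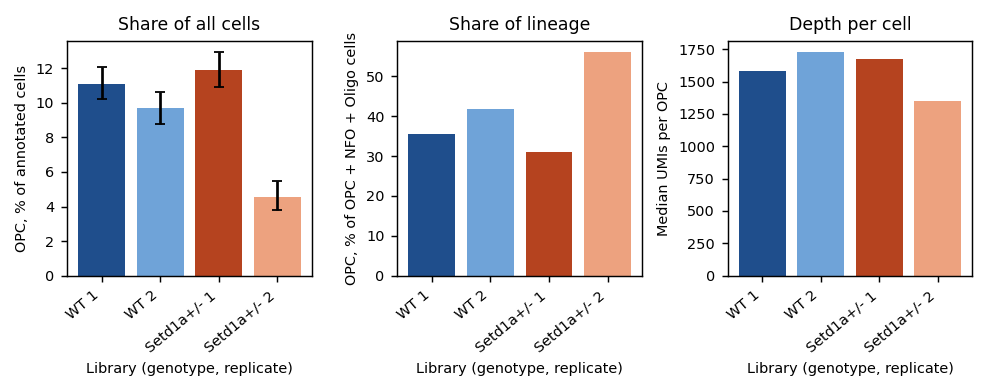
OPCs as a percentage of all annotated striatal cells with 95% Wilson intervals (left), OPCs as a percentage of OPC, NFO and Oligo cells (middle) and the median UMIs per OPC (right), in bars for the 4 libraries. Setd1a+/- replicate 2 is the lowest library on the left at 4.57% and on the right at 1351 UMIs, and the highest in the middle at 56.2%.

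The median OPC held 1580, 1729, 1675 and 1351 UMIs, so that the genotypes overlapped, with a difference of -141.5 UMIs between the means (exact permutation test, two-sided, p = 0.667). OPCs were the type with the lowest median depth in the striatum, and 44.3% of them had under 1000 detected genes, next to the authors' limit of 800 genes a cell. That share was higher in Astro (58.1%), Oligo (56.6%) and microglia (45.8%). The part of that limit in the shares of OPCs was not tested.

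Cycling OPCs made up 3.30% (2.04 to 5.29%), 4.09% (2.53 to 6.54%), 4.21% (2.71 to 6.49%) and 13.2% (8.14 to 20.6%), from 16, 16, 19 and 15 cells. The genotypes did not overlap, but Setd1a+/- replicate 1 exceeded the higher WT library by little. The difference of the means, 4.99 points, had an exact permutation p of 0.333, the smallest that 2 against 2 libraries allow. Without Setd1a+/- replicate 2 it was 0.517, and without thinning the genotypes overlapped, at 6.80, 7.93, 6.65 and 21.1%. The part of the higher mitochondrial share of that library in this difference was not tested. With OPCs that held any UMI of the NB markers left out, the shares were 3.25, 3.94, 4.30 and 13.6%. The committed share differed by 1.15 points between the means of 31.7% ± 6.16 and 32.9% ± 5.56 (SD, n = 2 each), with an exact permutation p of 0.667. Within replicates 1 and 2 the differences were 0.725 and 1.58 points (exact permutation test for pairs, p = 0.5, the smallest it allows).

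Single genes were tested on the UMIs summed over the OPCs of each library, with edgeR's quasi-likelihood test over 8003 genes. With the cutoffs of a false discovery rate (FDR) under 0.05 and a fold change (FC) over 2, 0 genes were called (0%), and the lowest FDR was 0.999. At an unadjusted p under 0.05 there were 186 genes or 2.32%, of which 75 (0.937%) were higher and 111 (1.39%) lower in Setd1a+/- OPCs. The count at that p was 280 with the replicate number as a block, 724 without Setd1a+/- replicate 1, 341 without Setd1a+/- replicate 2 and 109 without WT replicate 2. DESeq2 also called 0, with 13 at an unadjusted p under 0.05. The genotypes did not overlap in 1066 genes that were higher in both Setd1a+/- libraries (13.3%) and in 1357 that were lower (17.0%). With the replicate number as a block, 1 gene passed, Hbb-bt (log2 FC 2.19, edgeR FDR 2.28e-04), 1 of the 4 hemoglobin genes whose summed UMIs came mainly from the 5 cells above. Without Setd1a+/- replicate 1, which leaves replicate 2 alone for that genotype, 35 genes were called.

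The genes named next are the 10 with the smallest p in each direction among those whose genotypes did not overlap. None passed the FDR cutoff, so their values are given without a claim of change. Apoe, the apolipoprotein that carries lipids between glia and neurons (chr7:19696109-19699188), was by far the most abundant of them, with 360 UMIs or more in each library. It stood at 4532, 5489, 3366 and 2220 CPM, with both Setd1a+/- libraries under the lower WT library and a log2 FC of -0.82 (SE 0.20, edgeR FDR 0.999). In Astro, which had the highest level of any type, Apoe was at 9756, 13119, 8070 and 3525 CPM, and in Oligo at 684, 949, 454 and 277 CPM, in the same order of the 4 libraries. The Setd1a+/- libraries were also the lower pair in Endo, at 965, 797, 662 and 510 CPM, and in NFO, at 875, 2138, 410 and 711 CPM. The same held in NB, at 418, 623, 251 and 310 CPM, and at a low level in D2 neurons. The genotypes overlapped in microglia, at 2330, 2530, 3570 and 224 CPM, and in D1 neurons and Inhib. The empty droplets had 566, 474, 607 and 238 CPM, and their part in the OPC values was not tested. With no filter on low counts Apoe had an FDR of 9.0e-04 at a log2 FC of -0.85, under the FC cutoff, and without Setd1a+/- replicate 1 it was called with a log2 FC of -1.16.

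Most of the 9 others on the lower side rested on few UMIs. Brpf1 (chr6:113307137-113324860), a scaffold of histone acetyltransferase complexes, had 16, 10, 1 and 0 UMIs. The ratio of WT to Setd1a+/- counts, scaled to the total UMIs, was 16.6 with an exact 95% counting interval of 2.73 to 680, given as a description, since a small p and groups that do not overlap chose the gene. N6amt1, a methyltransferase, had 64, 72, 33 and 5 UMIs, or 81.2, 105, 42.4 and 30.8 CPM. Its Setd1a+/- libraries were also the lower pair in Astro, D1 and D2 neurons and Inhib. The same held in the empty droplets, at 56.6, 65.4, 39.5 and 50.6 CPM, while the genotypes overlapped in the remaining types. Cyb5r3, a cytochrome b5 reductase, was at 39.3, 42.4, 14.1 and 6.17 CPM, and Map3k12, the kinase DLK, at 26.6, 29.2, 7.71 and 0 CPM. Both lay below the empty droplets, which had 73.1 to 87.9 CPM of Cyb5r3 and 24.3 to 38.5 CPM of Map3k12. The remaining ones were Fut8, the enzyme of core fucosylation, Cbarp, a regulator of calcium channels, the unnamed protein-coding gene AC149090.1, at 237, 314, 167 and 148 CPM, and the noncoding RNAs Gm5914 and Gm9885. Cbarp was at 39.3, 64.3, 20.6 and 18.5 CPM, below the empty droplets at 138, 150, 115 and 129 CPM. AC149090.1 was also lower in both Setd1a+/- libraries in NFO, Astro, Endo, Inhib, D2 and D1 neurons, the last at 291, 382, 227 and 245 CPM. Its genotypes overlapped in Oligo, microglia, NB and the empty droplets. Gm9885 is annotated as an antisense RNA, and its 3 UMIs in Setd1a+/- OPCs gave a WT to Setd1a+/- ratio of 5.74 with a counting interval of 1.77 to 29.6, a description in the same sense.

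On the higher side, Sall3, a zinc finger factor, was at 21.6, 20.4, 45.0 and 67.8 CPM, with a log2 FC of 1.27 (SE 0.35, edgeR FDR 0.999). Ccne2, the cyclin of entry into S phase, was at 5.07, 2.92, 15.4 and 61.7 CPM. It followed the cycling share in being highest in Setd1a+/- replicate 2. Hmgcs1, an early enzyme of cholesterol synthesis, was at 27.9, 32.1, 52.7 and 74.0 CPM. The empty droplets held Hmgcs1 at 79.0, 70.5, 71.5 and 91.1 CPM, above the OPCs, and Sall3 at 0.762 to 2.37 CPM, below them. Angptl1, 1 of the 25 genes that lead in OPCs, was at 50.7, 64.3, 99.0 and 92.5 CPM, with a log2 FC of 0.78 (SE 0.26, edgeR FDR 0.999). Kcnip1, Cxxc5, Cobl, Arhgap17, Phactr2 and Selenop made up the rest, with log2 FC from 0.95 to 1.45. Selenop, a selenium carrier made at a mean of 2000 CPM by Oligo, was at 17.8, 17.5, 32.1 and 92.5 CPM in OPCs. Its CPM were higher in the empty droplets, at 208, 226, 359 and 213 CPM, and NFO had 5.68, 21.2, 71.0 and 115 CPM. The part of free RNA in the OPC values was not tested. Without Setd1a+/- replicate 1, Selenop was called with a log2 FC of 2.38 (edgeR FDR 0.0034) and Ccne2 with 3.86 (FDR 0.021).

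**Figure D4:**
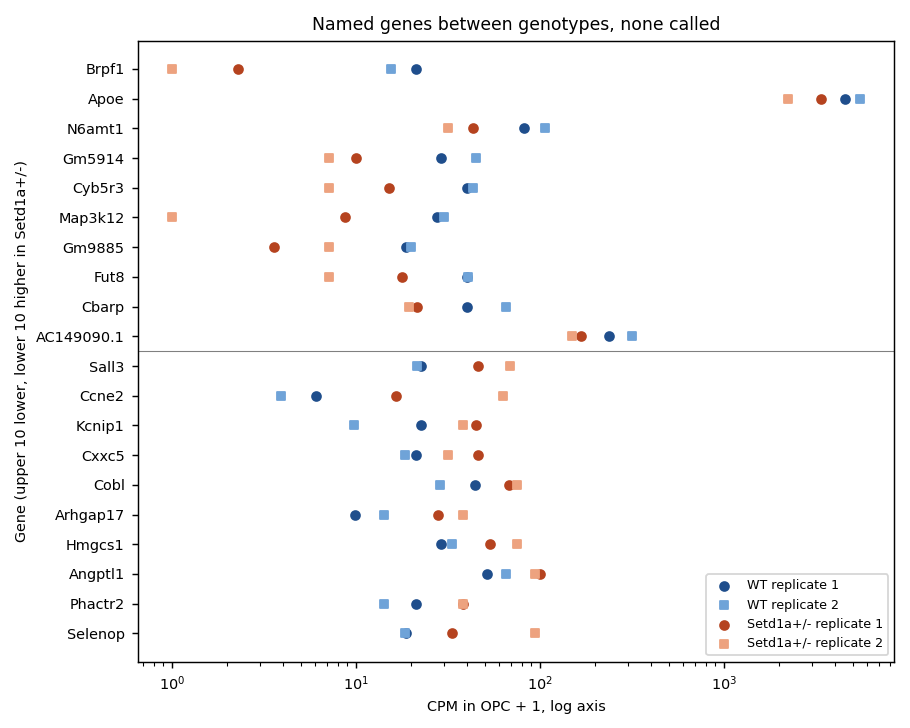
CPM plus 1 on a log axis, in the OPCs of the 4 libraries, of the 10 genes with the smallest p among those lower in both Setd1a+/- libraries (above the line) and the 10 among those higher in both (below it). Blue points are WT and red or orange points Setd1a+/- libraries; the colours do not overlap by the rule that chose the genes, and no gene passed an FDR of 0.05.

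At most 2 members of a gene list reached an unadjusted p under 0.05 in edgeR, next to 2.32% of all genes tested, and none an FDR under 0.05. These counts moved when 1 library was left out, as did the share over all genes. Each such fit leaves 1 library of a genotype alone, so medians are given in place of the counts. For the immediate early and stress genes the median log2 FC was 0.06 with all libraries. It was 0.27 without Setd1a+/- replicate 2 and -0.62 without Setd1a+/- replicate 1. In the same order of omission it was 0.07 and -0.20 for OPC identity genes and 0.26 and -0.24 for lineage factors. For matrix genes it was 0.17 and -0.15, for receptors 0.15 and -0.50, and for cell cycle genes 0.02 and 1.11. Over all genes tested the median log2 FC was 0.00. Of 20 OPC identity genes 1 had an unadjusted p under 0.05, Xylt1 (log2 FC 0.48, SE 0.21), and the median was -0.02. Pdgfra had a log2 FC of 0.11 (SE 0.18), Ptprz1 of -0.01 (SE 0.16) and Vcan of -0.26 (SE 0.19). Of 23 lineage factors 1, Hes6, was lower (-0.63, SE 0.27), with a median of 0.14. Of 27 glutamate and GABA receptor genes 1, Gabrg1, was higher (0.75, SE 0.33), and of 17 cholesterol genes 1, Hmgcs1 (0.96, SE 0.32). Of 14 immediate early and stress genes Dnajb1 was higher (0.68, SE 0.29) and Egr1 lower (-1.05, SE 0.48). None of 23 receptors, 22 ion channels, 5 commitment genes, 9 myelin genes, 9 cell cycle genes and 18 genes of histone H3 lysine 4 methylation reached that level.

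**Figure D5:**
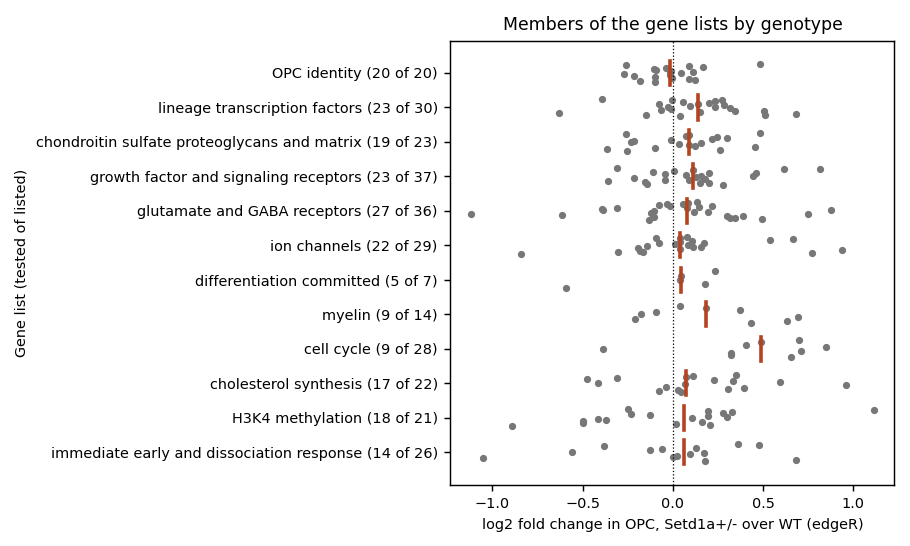
Log2 FC between Setd1a+/- and WT OPCs (edgeR) for each tested member of 12 gene lists, with grey points for genes, red bars for the median of a list and a dotted line for the median of all genes tested. The bars lie between -0.02 for OPC identity and 0.49 for the cell cycle list, of which 9 of 28 genes could be tested.

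The cell cycle list had a median of 0.49, which was 0.02 without Setd1a+/- replicate 2 and 1.11 without Setd1a+/- replicate 1. The median over all genes was -0.04 without Setd1a+/- replicate 1, and 8 of the 12 lists had a median below it, down to -0.62 for the immediate early and stress genes and -0.75 for the myelin genes. Of the 9 tested cell cycle genes 8 had a positive log2 FC and Mcm6 a negative one, next to 4021 positive and 3982 negative of all 8003 genes. Tyms, Pclaf and Mcm5 were higher in both Setd1a+/- libraries, 3 of 9 against 13.3% of all genes. The 9 genes were counted in the same cells and are not independent of each other. The summed level of the cell cycle list was 246, 250, 289 and 573 CPM, so that Setd1a+/- replicate 2 carried most of the difference, as it did for the cycling share. The list of histone H3 lysine 4 methylation went both ways. Kmt2d, Kmt2a, Rbbp5 and Wdr5 were higher and Ash2l, Cxxc1, Hcfc1 and Kdm5a lower in both Setd1a+/- libraries, 4 of 18 on each side against 13.3% and 17.0% of all genes, with Ash2l, a core subunit, at 26.6, 24.8, 15.4 and 6.17 CPM.

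Whether the genotype difference in OPCs differed from that in a related type was tested as an interaction in edgeR. Against Oligo, 1 of 8825 genes (0.0113%) passed an FDR of 0.05. This was Crip1, a small LIM protein, at 46.9, 54.0, 37.3 and 30.8 CPM in OPCs and at 12.8, 33.0, 53.5 and 75.5 CPM in Oligo. The log2 FC in OPCs minus that in Oligo was -1.89 (SE 0.42, edgeR FDR 0.048), and with no filter on low counts 0 genes passed. Against Astro 0 of 9200 genes passed, with 390 at an unadjusted p under 0.05, and 10 passed when only library size was used.

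Against NFO, 17 of 3908 genes (0.435%) passed, 16 of them with a higher log2 FC in OPCs. They were the 4 hemoglobin genes and 12 others, among them Meg3, Pcp4, Tac1 and Arpp21, which neurons express. Meg3, a long noncoding RNA of neurons, was at 1503, 1150, 1432 and 1184 CPM in OPCs of the 4 libraries and at 1364, 1630, 115 and 574 CPM in NFO. For Meg3 the Setd1a+/- NFO lay below the WT NFO, while the genotypes overlapped in OPCs. In NFO, Pcp4 and Arpp21 were also lower in both Setd1a+/- libraries, but the genotypes overlapped for Tac1, at 460, 42.3, 27.3 and 161 CPM. The NFO numbered only 58, 32, 53 and 22 cells, and with cells of 100 or more hemoglobin UMIs left out 13 genes passed.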

How the data were processed

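The authors made UMI counts per gene and barcode with Cell Ranger 3.0.2 against mm10, as the submitters' processing notes list them, and deposited the raw counts of all barcodes, empty ones included. Their table of annotated cells, made with Seurat 3.2.0 from cells of 800 or more genes whose mitochondrial share was 10% or less, gave library and type, with the percentage of mitochondrial UMIs per cell as the authors computed it. No doublet removal is stated, and none was run. The UMI totals in that table served only as a check. In the striatal libraries they correlated with the totals used here at r = 0.993 to 0.996. Their median was 89.2 to 90.0% of those totals, so the depths given here are higher than the authors'. The gene totals in that table and the authors' gene-by-cell tables were not used. Some genes are not reported here. Gene positions are from GENCODE vM21 (GRCm38, the same assembly as mm10).

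The OPCs and the lists were chosen with earlier results of these data known. UMIs were summed per library and tested with edgeR 4.0.16 in R 4.3.3 (quasi-likelihood test, TMM, genes kept by filterByExpr at its minimum count of 10, FDR by Benjamini-Hochberg), without the replicate block. Genes were called at an FDR under 0.05 and FC over 2; interactions at an FDR under 0.05 with library as a block. Named genes were the 25 with the largest ratio between types and the 10 with the smallest p in each direction among genes whose libraries did not overlap between genotypes; Setd1a and list members were added. Shares and depths were compared with exact permutation tests over libraries in Python 3.11.15 (scipy 1.17.1). The tests were tried on simulated data. The study's methods put 1 library of either genotype in a biological replicate, and same-numbered libraries were taken as pairs; the deviations of replicates from their genotype's mean correlated across genes with r = 0.17. A count of 0 allows up to 3 counts. Alternatives were DESeq2 1.42.0, library size only, no filter on low counts, the replicate block, no FC cutoff, fewer genes or cells, thinning to 1000 UMIs, other cutoffs and leaving out each library.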

Additional observations from a re-analysis of the deposited data

Results flagged for a closer look

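The genotype difference (log2 FC) in OPCs differed from that in another type of the lineage, by the interaction test, for 18 genes. Against NFO it was higher in OPCs for the hemoglobin genes Hbb-bs (by 7.33), Hba-a1 (7.72), Hbb-bt (12.35) and Hba-a2 (5.16). Hbb-bt had 0 UMIs in both Setd1a+/- NFO sums, so that its value depends on the fit's prior count and is no measure of size, and Hba-a1 had 1 and 0. Of the hemoglobin UMIs, 4462 of 4709 in OPCs lay in 5 cells and 1089 of 1115 in NFO lay in 1 cell of WT replicate 1.

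It was also higher in OPCs for genes that included Meg3 (2.74), Pcp4 (1.93), Tac1 (2.29), Arpp21 (1.93), Snhg11 (2.04), Fxyd6 (1.49), Ramp1 (1.39), 6330403K07Rik (1.83), Atp6v1g2 (2.64), Ldhb (1.37) and Cartpt (3.76). For Tubb2b it was lower, at -0.91. Against Oligo the difference of Crip1 was -1.89. In NFO, Tac1 had 81, 4, 5 and 7 UMIs and Cartpt 30, 2, 2 and 0, most of them in WT replicate 1. The NFO sums rest on 22 to 58 cells a library, and the part of free RNA and of other cells in these values was not tested.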

How the results depend on the processing

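The OPC share turned from -2.17 to 4.92 percentage points among lineage cells and spanned -5.83 to 1.48 when each library was left out, positive without Setd1a+/- replicate 2. Median depth spanned -303.5 to 20.5 UMIs, also positive without that library. The difference in the committed share turned to -2.15 points without thinning and to -0.181 at 3 UMIs or more, and spanned -3.21 to 5.51, negative without WT replicate 2 or Setd1a+/- replicate 1. The difference between the mean cycling shares stayed positive in the alternatives run, at 0.517 to 9.46 points with libraries left out. The genotypes overlapped without thinning and at 1 UMI or more, where the shares were 14.8, 18.4, 15.3 and 28.9%. They did not overlap at 3 UMIs or more, at 1.65, 1.53, 2.66 and 8.77%, with Setd1a+/- replicate 2 again the highest. Genes called went from 0 to 2 with no filter on low counts (Hbb-bt and Gm26793) and to 1 to 35 with a library left out, 35 without Setd1a+/- replicate 1. DESeq2, library size only, thinning and leaving out cells or genes gave 0. Interactions against Oligo went from 1 to 0 with no filter and 4 to 25 with libraries left out. Those against NFO went from 17 to 11 and 1 to 21, with 1 without Setd1a+/- replicate 1. Those against Astro went from 0 to 10 by library size only, 3 with no filter and 0 to 98. The cause of these changes was not tested. With a library left out, the lone one of its genotype is assumed to vary like the others.

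With the replicate block, 1 gene was called (Hbb-bt). The paired differences in shares and depth equal the unpaired ones by construction, and the smallest exact permutation p for pairs was 0.5. Leaving out cells with markers of other types, as planned, removed 1224 of 1441 OPCs; a stricter version, and those on hemoglobin and NB markers, were chosen after seeing the data. Pooled mice, 2 libraries a genotype and 162197 OPC UMIs in Setd1a+/- replicate 2 limit what could be detected.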
